A study of Mus musculus with 6 samples.

Results

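The stimulus for enzyme secretion in the acinar cell of the pancreas is carried by receptors, a G protein and calcium channels, and 10 genes for these were followed in newborn mice lacking miR-216a. They were listed by name for their roles: the receptors Cckar, Chrm1, Chrm3, Sctr and Vipr1, the G protein subunit Gnaq, the calcium release channels Itpr2 and Itpr3, and the calcium entry pair Stim1 and Orai1. These 10 were found among 35527 genes to which transcripts were summed, and all 10 had enough reads to be among the 15805 genes tested. RNA from the whole pancreas of 1-day-old C57BL/6 mice was sequenced as stranded mRNA libraries, 3 from miR216a-/- mice (KO) and 3 from wild-type mice (WT). Every library had a different donor mouse. The strain, tissue and age were common to both groups, while the labels name neither sex nor litter nor the way the miR-216a allele was made. Whole pancreas holds acinar, ductal, islet, vascular, nerve and connective tissue cells together.

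Acinar cells release digestive enzymes from zymogen granules when cytosolic calcium rises. Cholecystokinin and acetylcholine act through receptors coupled to Gq, which turns on phospholipase C. The inositol trisphosphate made by this enzyme opens channels in the endoplasmic reticulum (ER). When that store empties, STIM1 in the ER membrane opens ORAI1 at the cell surface. Secretin and vasoactive intestinal peptide act mainly through Gs and cyclic AMP, which strengthens secretion. miR-216a is a microRNA of the pancreas, and microRNAs repress messenger RNAs that pair with their seed, most often in the 3' untranslated region (3' UTR).

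The mature strand deleted in KO is shown with the single match to its seed in the 3' UTRs searched for the 10 genes. Only the seed of this strand was searched for, and coding sequence was not searched. The microRNA sequence is from RefSeq (GRCm38.p6, chr11:28757018-28757039, plus strand), with the seed, bases 2 to 8, in capitals. The Itpr2 stretch is given 5' to 3' on the transcript strand (GRCm38, chr6:146109357-146109384, minus strand), with the 8-base match in capitals.
mmu-miR-216a-5p: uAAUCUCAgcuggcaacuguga
Itpr2 3' UTR: cctaaattaaaatgatTGAGATTAgaga

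The match in Itpr2 lies in exon 56 of 56 of the transcript Itpr2-202, at bases 2303 to 2310 of a 3' UTR of 3372 bases. The search took the longest annotated 3' UTR of each gene and read the transcript strand only. It looked for TGAGATTA (8mer), and for TGAGATT (7mer-m8) and GAGATTA (7mer-A1), both of which lie inside the 8mer. Of 21022 genes searched, 3193 (15.2%) held at least 1 such match, as did 1 of the 10 genes (10%). Length matters for such a count: among the 2176 genes with a 3' UTR of 80 to 125% of the length of that of Itpr2, 34.1% held a match. Chrm1, Gnaq and Vipr1 had 3' UTRs of 4272, 4069 and 3389 bases and held no match, and the 254 bases of Sctr held none either. The transcripts searched for Cckar, Chrm1, Stim1 and Orai1 were Cckar-202, Chrm1-202, Stim1-202 and Orai1-202. Those with the highest level were Cckar-201, Chrm1-201, Stim1-201 and Orai1-201, which were not searched separately. A match is a run of letters and not evidence of binding, and its absence says only that these letters are not in the annotated stretch.

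Depth was even, from 20565387 to 23028718 estimated reads per library. The transcripts quantified included 0 of Mir216a and 0 of Gm12082, the noncoding gene around it, so the deletion itself was not analysed here, and KO and WT are taken as labelled. KO 1 stood apart from the other 5 libraries in the Y-linked gene Ddx3y, at 0.141 CPM (estimated reads scaled to library size), against 71.5 and 102 CPM in KO 2 and KO 3 and 61.8 to 75.0 CPM in WT. KO 2 and WT 1 held the most RNA of red blood cell genes, with a summed level of 4787 CPM in KO 2 and 5940 CPM in WT 1. The other libraries had 1705 and 1796 CPM in KO against 2700 and 2836 CPM in WT. Acinar cells were present in all 6 libraries, since 14 of 14 acinar markers were detected, with a summed level of 133480 to 159350 CPM in KO against 119130 to 172040 CPM in WT.

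None of the 10 genes differed between KO and WT beyond the spread between mice. With edgeR's quasi-likelihood test and Benjamini-Hochberg adjustment over all genes tested, 0 of 10 had an adjusted p under 0.05, as was the case for 0 of 15805 genes (0%). At an unadjusted p under 0.05 the count was 0 of 10, where 12.6% of all genes passed. DESeq2 called 0 of the 10 and 2.76% of all genes, and limma-voom called 0 of the 10 and 2 genes in all. In CPM, the KO libraries all lay above the WT libraries for 0 of the 10, against 9.07% of genes, and all below them for 0 of the 10, against 10.3%. The median log2 fold change of KO over WT was 0.11 for the 10 genes, 7 above 0 and 3 below, and 0.01 for all genes tested. Their median absolute log2 fold change was 0.19, beside 0.16 for all genes.

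**Figure D1:**
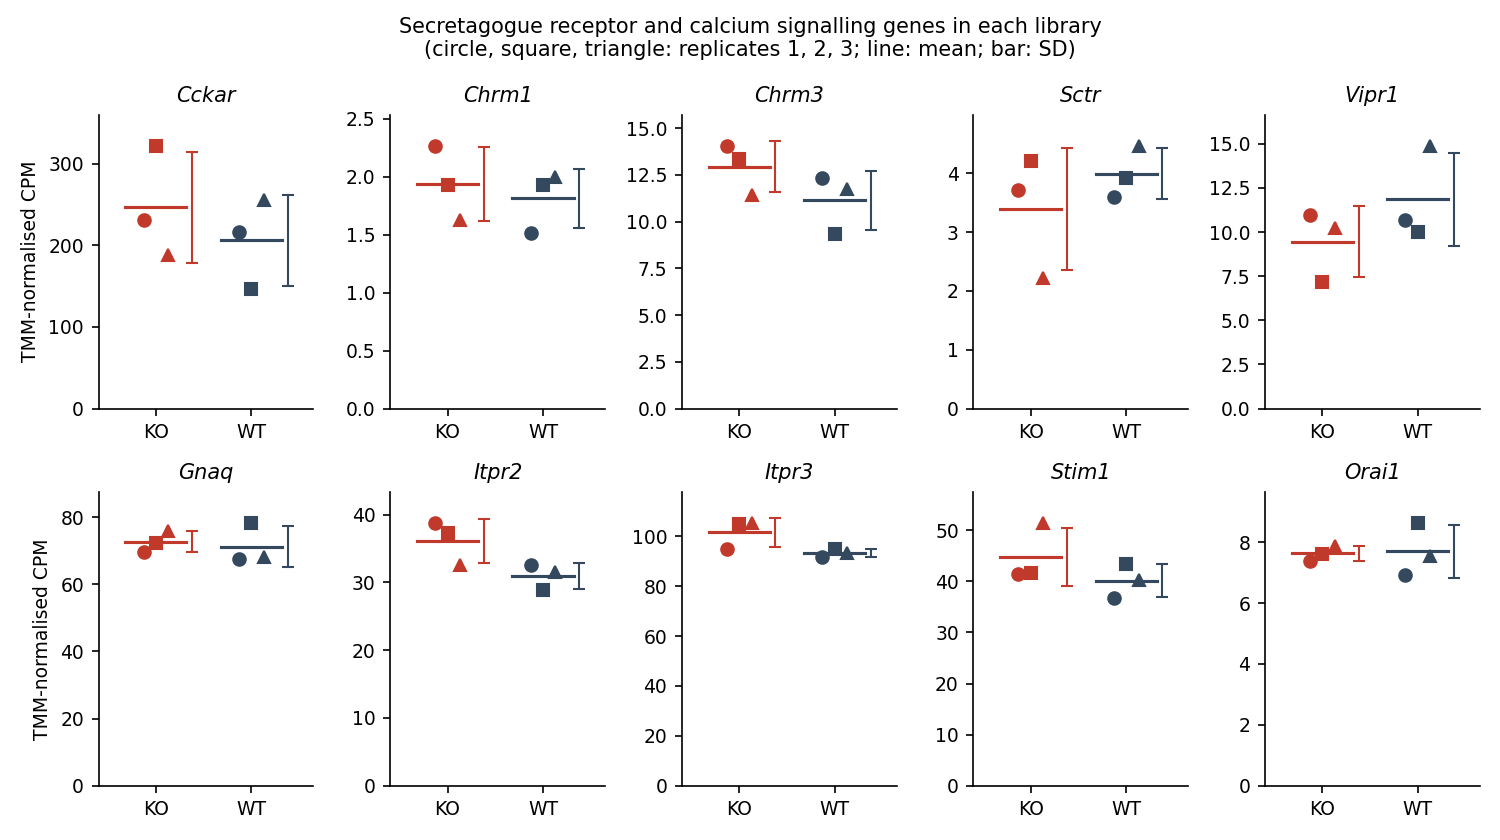
Level of each gene in every library, in CPM normalised by TMM on a linear axis that starts at 0, with KO on the left and WT on the right of each panel. Circles, squares and triangles are replicates 1, 2 and 3, the line is the mean and the bar the SD (n = 3 each), and in each of the 10 panels the KO and WT points overlap.

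Per unit of transcript length, Cckar stood far above the rest. In TPM, which corrects for length and so allows genes to be compared, the mean level over the 6 libraries was 104 for Cckar, with a range of 74.6 to 138. Gnaq followed at 18.6 TPM, Stim1 at 18.1 TPM and Itpr3 at 13.3 TPM, and the ranges of neighbours in this order overlapped. Orai1 at 7.31 TPM lay below Itpr3 without overlap. Itpr2 averaged 4.38 TPM, Chrm3 3.62 TPM, Vipr1 3.20 TPM and Sctr 2.41 TPM, each overlapping the next. Chrm1 was lowest at 0.468 TPM, with a range of 0.321 to 0.786 that did not reach the range of Sctr. Cckar was 5.58 times as high in TPM as Gnaq, and Sctr 5.16 times as high as Chrm1.

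Cckar, the receptor for cholecystokinin on mouse acinar cells, lies on chromosome 5 from 53697776 to 53707705 on the minus strand (GRCm38, as are all gene positions here). It had 231, 321 and 188 CPM in KO 1 to 3 and 216.2, 146 and 256 CPM in WT 1 to 3. KO 2 was the highest library and WT 2 the lowest, and the others were interleaved. The log2 fold change in CPM was 0.26 ± 0.24 (SE, adjusted p = 0.711, edgeR), or 1.198-fold with a 95% interval of 0.814 to 1.76. It depended on single libraries, with 0.020 without KO 2, 0.064 without WT 2, 0.42 without KO 3 and 0.45 without WT 3. Within a genotype the highest library had 1.71 times the CPM of the lowest in KO and 1.75 times in WT, so the spread between mice of the same genotype was larger than the difference between the means. Digestive enzyme genes were picked by the start of their symbols, such as Prss, Cela, Amy and Cpa, so other proteases may be among the 65 taken. Their share of reads was 34.2, 38.3 and 34.9% in KO 1 to 3 and 33.6, 29.5 and 36.1% in WT 1 to 3. It too was highest in KO 2 and lowest in WT 2, and its part in the Cckar values was not tested. In bulk RNA, fewer cells of a type and less RNA per cell cannot be told apart.

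The muscarinic receptors that couple to Gq, Chrm3 and Chrm1, answer acetylcholine from nerves. Chrm3 (chromosome 13, 9875486 to 10360847, minus strand) had 14.0, 13.4 and 11.4 CPM in KO 1 to 3 and 12.3, 9.34 and 11.8 CPM in WT 1 to 3. KO 1 and KO 2 were above all WT libraries and KO 3 was below WT 1 and WT 3. The log2 fold change was 0.22 ± 0.15 (SE, adjusted p = 0.617, edgeR), with a 95% interval of -0.14 to 0.57, and 0.10 without WT 2. Chrm1 (chromosome 19, 8663789 to 8683587, plus strand) rested on 32 to 48 reads per library. Its level was 2.26, 1.93 and 1.62 CPM in KO 1 to 3 and 1.52, 1.92 and 1.99 CPM in WT 1 to 3, with KO 1 the highest and WT 1 the lowest. At this depth the interval of its log2 fold change ran from -0.51 to 0.70, and the sign of the estimate, 0.10, turned to -0.030 without KO 1.

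The 2 secretin family receptors among the 10 genes, Sctr and Vipr1, had lower means in KO than in WT, again within the spread. Orai1 also had a lower mean in KO, by little, at 7.63 CPM against 7.69 CPM in WT. Sctr, the secretin receptor (chromosome 1, 120006894 to 120063536, plus strand), had 3.72, 4.22 and 2.22 CPM in KO 1 to 3 and 3.60, 3.93 and 4.46 CPM in WT 1 to 3. KO 3 stood below the other 5 libraries, which were interleaved. The log2 fold change was -0.24 ± 0.27 (SE, adjusted p = 0.763, edgeR), with a 95% interval of -0.86 to 0.38 and 52 to 98 reads per library. KO 3 carried nearly all of it, since the value was -0.0099 without KO 3, and it was -0.43 without KO 2 and -0.15 without WT 3. Vipr1, a receptor for vasoactive intestinal peptide (chromosome 9, 121642716 to 121672954, plus strand), had 10.975, 7.17 and 10.2 CPM in KO 1 to 3 and 10.7, 10.02 and 14.9 CPM in WT 1 to 3. WT 3 was the highest library, KO 2 the lowest, and the other 4 lay within about 1 CPM of each other. At -0.32 ± 0.22 (SE, adjusted p = 0.596, edgeR), its log2 fold change was the furthest from 0 of the 10 in the fit of all 6 libraries, with a 95% interval of -0.82 to 0.18. It was -0.16 without KO 2, where Sctr was further from 0, and -0.12 without WT 3, where Cckar was. Cckar was also further from 0 without KO 3, at 0.42 against -0.38 for Vipr1. Without KO 2 and WT 1 together Sctr was, at -0.50 against -0.23 for Vipr1.

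Gnaq, the alpha subunit of Gq that links these receptors to phospholipase C, varied little between libraries. The gene (chromosome 19, 16132831 to 16387463, plus strand) had 69.6, 72.4 and 75.9 CPM in KO 1 to 3 and 67.4, 78.1 and 68.1 CPM in WT 1 to 3. All KO values lay inside the WT range. Its log2 fold change was 0.03 ± 0.09 (SE, adjusted p = 0.934, edgeR), with a 95% interval of -0.18 to 0.24.

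Of the channels that inositol trisphosphate opens, Itpr2 and Itpr3 are the types known from the apical pole of mouse acinar cells. Itpr2 (chromosome 6, 146108299 to 146502223, minus strand) had 38.7, 37.3 and 32.5 CPM in KO 1 to 3 and 32.6, 28.9 and 31.5 CPM in WT 1 to 3. KO 1 and KO 2 were above all WT libraries, and KO 3 and WT 1 were nearly equal, so the groups overlapped in that pair. The log2 fold change was 0.22 ± 0.10 (SE, unadjusted p = 0.0639, adjusted p = 0.433, edgeR), or 1.17-fold with a 95% interval of 0.989 to 1.38. It had the smallest p of the 10, and without KO 3 its unadjusted p was 0.0170 and its adjusted p 0.348. Over the 16 alternative settings its log2 fold change stayed between 0.17 and 0.31, and its adjusted p between 0.348 and 0.792.

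Itpr2 is also the gene with the seed match shown above. On the TPM scale its groups did not overlap, with 6.28, 4.196 and 4.21 TPM in KO 1 to 3 and 3.94, 3.89 and 3.75 TPM in WT 1 to 3. KO 1 was the high library on this scale, and KO 2 and KO 3 lay just above WT 1. Of the KO 1 level, 1.498 TPM came from Itpr2-210, a transcript of 575 bases. This transcript had 9.86 reads in KO 1 and 0 in every other library. In the main transcript alone, Itpr2-202, KO 1 to 3 had 3.94, 3.03 and 2.997 TPM. WT 1 to 3 had 2.91, 2.8 and 2.29 TPM, so the groups did not overlap there either, with KO 3 just above WT 1. The share of all transcripts with such a separation was not computed. Another transcript of the gene, Itpr2-201, had 0 reads in KO 1 and 56.6 to 107.6 in the other libraries. How reads were assigned between these transcripts was not tested. Chrm3 was the other of the 10 whose KO libraries all lay above WT in TPM, at 4.57, 3.89 and 3.58 TPM in KO 1 to 3 and 3.57, 2.99 and 3.12 TPM in WT 1 to 3. The Chrm3 separation was between 3.577 TPM in KO 3 and 3.569 TPM in WT 1. In its main transcript alone, Chrm3-202, the groups overlapped, with 3.44 TPM in KO 3 and 3.50 TPM in WT 1. Itpr2 and Chrm3 make 2 of 10 genes, where 7.04% of all genes tested had all KO libraries above WT in TPM. The reverse order was found in 0 of the 10 and in 6.4% of all genes. In CPM neither gene kept this separation.

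Itpr3 (chromosome 17, 27057304 to 27122223, plus strand) had 94.9, 104.9 and 105.2 CPM in KO 1 to 3 and 91.8, 94.9 and 93.2 CPM in WT 1 to 3. KO 2 and KO 3 were above all WT libraries, and KO 1 was level with WT 2. Its log2 fold change was 0.12 ± 0.08 (SE, adjusted p = 0.588, edgeR), with a 95% interval of -0.06 to 0.31.

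Stim1, the sensor of calcium in the ER (chromosome 7, 102267806 to 102437319, plus strand), had 41.4, 41.7 and 51.4 CPM in KO 1 to 3 and 36.8, 43.3 and 40.3 CPM in WT 1 to 3. KO 3 stood above the other 5 libraries, which overlapped. Its log2 fold change was 0.16 ± 0.12 (SE, adjusted p = 0.631, edgeR), with a 95% interval of -0.11 to 0.43, but 0.049 without KO 3 and 0.10 without WT 1. Orai1, the pore that STIM1 opens (chromosome 5, 123015074 to 123030456, plus strand), had 7.40, 7.62 and 7.87 CPM in KO 1 to 3 and 6.92, 8.62 and 7.55 CPM in WT 1 to 3. The KO values again lay inside the WT range. Its log2 fold change was -0.01 ± 0.15 (SE, adjusted p = 0.981, edgeR), with a 95% interval of -0.36 to 0.33.

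**Figure D2:**
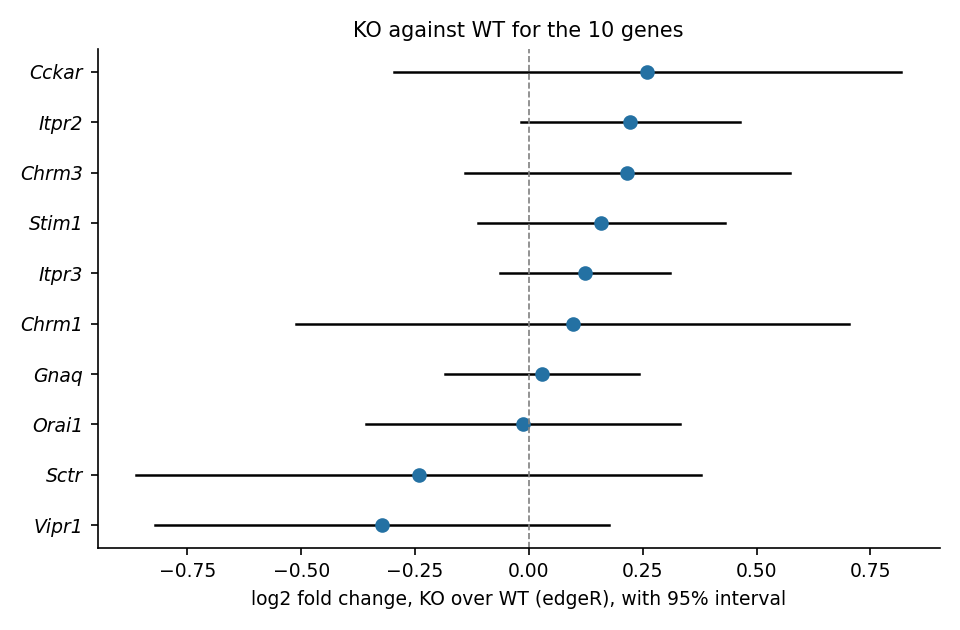
Log2 fold change of KO over WT in edgeR's fit (points) with its 95% interval (lines) for each of the 10 genes, ordered by the estimate. Each interval includes 0, the narrowest are those of Itpr3 and Gnaq, and the widest are those of the low genes Sctr and Chrm1.

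The intervals set what these 6 libraries could show. For Gnaq and Itpr3 they reach no further than 0.31 from 0 on the log2 scale. For Sctr, Vipr1, Cckar and Chrm1 they reach beyond 0.70 in 1 direction. The median half-width over all genes tested was 0.37.

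Levels within each gene family, compared in TPM, placed the 10 genes among their relatives. Cckar held 99.5 ± 0.0938% of the TPM of the 2 cholecystokinin receptors in KO and 99.0 ± 0.145% in WT (SD, n = 3 each), the rest being Cckbr. Chrm3 held 57.4 ± 4.16% of muscarinic receptor TPM in KO and 59.1 ± 8.30% in WT. Chrm2, which couples to Gi, came next with 28.7 ± 4.79% in KO and 25.6 ± 5.597% in WT, and Chrm1 held 7.34 ± 1.96% in KO and 7.45 ± 1.55% in WT. In the secretin receptor family, 2 relatives outside the 10 held most of the TPM. Vipr2 had 42.4 ± 14.1% in KO and 34.0 ± 4.95% in WT, and Adcyap1r1 had 30.3 ± 9.80% in KO and 31.3 ± 7.04% in WT. Vipr1 held 15.2 ± 3.66% in KO and 20.3 ± 6.41% in WT, and Sctr 12.1 ± 3.72% in KO and 14.4 ± 0.670% in WT.

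Further along the pathway, the best known acinar form was not always the most abundant in whole pancreas. Gna11, a close relative of Gnaq, held 57.8 ± 1.17% of the TPM of the Gq family in KO and 58.9 ± 3.18% in WT, above the 36.6 ± 0.741% of Gnaq in KO and 34.4 ± 2.65% in WT. Among the inositol trisphosphate receptors, Itpr1 had the highest mean share, 46.2 ± 2.90% in KO and 46.9 ± 0.922% in WT, although Itpr3 was above it in KO 3. Itpr3 held 40.1 ± 4.63% in KO and 40.6 ± 0.507% in WT, and Itpr2 13.7 ± 2.20% in KO and 12.5 ± 1.1955% in WT. Stim1 held 57.2 ± 5.37% of the TPM of the STIM pair in KO and 53.5 ± 5.61% in WT. Of the ORAI genes, Orai3 led with 44.6 ± 1.44% in KO and 41.5 ± 3.54% in WT, and Orai1 held 31.5 ± 0.828% in KO and 30.1 ± 3.92% in WT. These shares add up over all cell types of the organ and are not those of acinar cells.

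**Figure D3:**
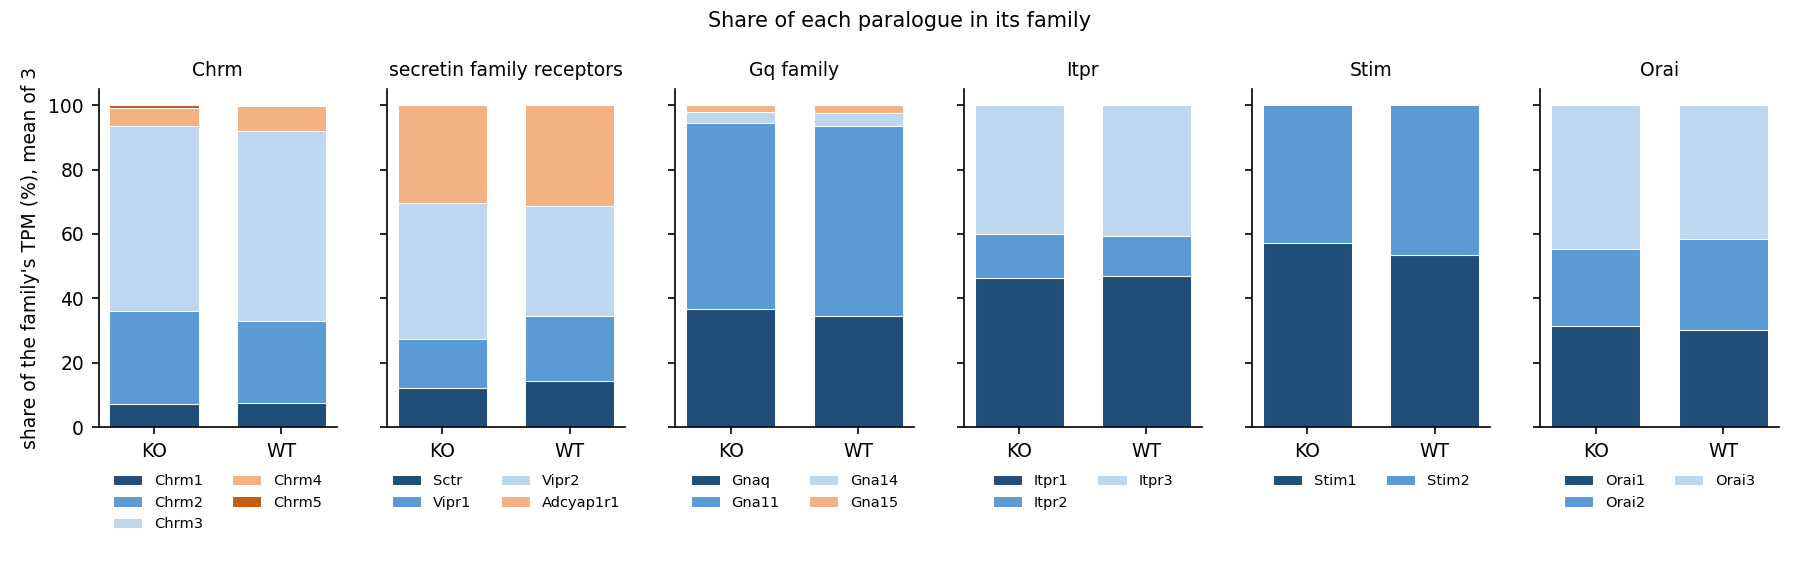
Composition of 6 gene families as a percentage of the family's TPM, mean of 3 libraries, with the KO bar left of the WT bar for each family. Chrm3 and Stim1 hold the largest part of their families, whereas Gnaq, Itpr2, Itpr3, Vipr1, Sctr and Orai1 are each below a relative that is not among the 10 genes.

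The share of a gene's TPM held by its main transcript, the one with the highest mean TPM, differed among the 10 genes. It was lowest in Chrm1, where Chrm1-201 held 48.6 ± 7.65% in KO and 45.5 ± 12.2% in WT. By estimated reads the main transcript of Chrm1 was Chrm1-202. Stim1-201 held 65.0 ± 6.74% of Stim1 TPM in KO and 67.5 ± 5.31% in WT. Orai1-201 held 69.5 ± 5.57% of Orai1 TPM in KO and 65.8 ± 3.54% in WT. Itpr3-201 held 100% of the TPM of Itpr3 in every library, and Cckar-201 held 87.8 ± 0.667% of Cckar TPM in KO and 87.5 ± 1.55% in WT. Itpr2-202, the transcript with the seed match, held 68.8 ± 5.27% of Itpr2 TPM in KO and 69.0 ± 6.88% in WT. The groups did not overlap in Gnaq and Chrm3. Gnaq-201 held 93.8, 85.3 and 92.5% of Gnaq TPM in KO 1 to 3 and 95.2, 98.1 and 96.2% in WT 1 to 3, and Chrm3-202 held 92.3, 90.7 and 96.1% of Chrm3 TPM in KO 1 to 3 and 97.9, 100 and 96.8% in WT 1 to 3. Every KO library was below every WT library in each gene, with a KO minus WT difference of -5.93 percentage points in Gnaq and -5.18 in Chrm3. An exact two-sided permutation test gave p = 0.1 for each, the smallest that 3 against 3 libraries allow, and an adjusted p of 0.5 over the 10 genes. The share of all genes with such a separation was not computed. As a share of estimated reads in place of TPM, the KO minus WT difference was only -0.56 percentage points in Gnaq and -0.70 in Chrm3. The Chrm3 groups then overlapped, with 98.7% in KO 2 and 98.4% in WT 3. The minor transcripts held few reads, 2.62 to 15.3 per library for Gnaq-202 and at most 2.30 for Chrm3-203. The mean difference was larger in Sctr, at -14.4 percentage points, but its groups overlapped. Sctr-201 held 70.3, 54.9 and 100% of Sctr TPM in KO 1 to 3 and 100, 68.5 and 100% in WT 1 to 3.

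Around the 10 genes, 148 further genes of the pathway were taken from 10 lists by role, and 137 of them had enough reads to be tested. With edgeR 0 were called, 6 were higher and 8 lower in KO at an unadjusted p under 0.05, and their median log2 fold change was 0.02. That is 14 of 137, beside the 12.6% of all genes given above. Over all 15805 genes tested, the log2 fold change was above 0 in 8085 and below 0 in 7720. DESeq2 called 2 of the 137, Aqp1 and Rgs16, beside 2.76% of all genes tested, and limma-voom called none. In CPM, all KO libraries lay above all WT libraries for 11 of the 137 and below them for 16. Over all genes tested these orders were found in 9.07% and 10.3%. Most genes named below are from the 3 of each list with the smallest unadjusted p and a mean of at least 1 CPM. Vip, Calr, Canx, Hspa5, Hsp90b1 and genes below the filter are named besides. Except where DESeq2 is named, none of the genes named below passed a test on all 6 libraries.

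Several genes for the peptides that drive the receptors had few reads. Cck, Sct, Adcyap1, Nts and the acetylcholine-making enzyme gene Chat were among 11 of the 148 genes below the filter, and Cck had 0.102 to 0.171 CPM in KO against 0.160 to 0.332 CPM in WT. Vip, whose peptide acts on VIPR1, was tested, with 2.78, 1.72 and 10.2 TPM in KO 1 to 3 and 7.72, 9.61 and 3.59 TPM in WT 1 to 3. KO 3 was the highest library and KO 2 the lowest, and the groups overlapped. Of the 8 tested genes of secretagogue and acetylcholine supply, 2 were above 0 and 6 below in log2 fold change, with a median of -0.42 and 0 at an unadjusted p under 0.05. The choline transporter Slc5a7 averaged 2.64 ± 0.662 CPM in KO against 3.57 ± 1.13 CPM in WT. Slc18a3, the vesicular acetylcholine transporter, averaged 1.32 ± 0.436 CPM in KO against 1.80 ± 0.533 CPM in WT. It lies inside Chat on the same strand, so their reads are hard to separate. Acetylcholinesterase, Ache, averaged 3.39 ± 0.884 CPM in KO against 4.09 ± 0.663 CPM in WT (SD, n = 3 each, here and for the means that follow).

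Among the other secretagogue receptors, 8 of 11 tested were above 0 and 1 was higher at an unadjusted p under 0.05. That gene was Agtr1a, an angiotensin II receptor, which averaged 16.6 ± 1.91 CPM in KO against 11.6 ± 1.15 CPM in WT, a log2 fold change of 0.52 (adjusted p = 0.237, edgeR). Its KO libraries all lay above its WT libraries. Chrm2 averaged 7.77 ± 0.798 CPM in KO against 5.67 ± 1.30 CPM in WT, and Cckbr 1.18 ± 0.354 CPM in KO against 1.93 ± 0.514 CPM in WT.

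In the list of G proteins and phospholipase C, 4 of 14 genes were above 0 and 10 below. Rgs16, which speeds the turn-off of Gi and Gq proteins, had 4.85, 3.15 and 4.02 CPM in KO 1 to 3 and 7.63, 7.78 and 8.16 CPM in WT 1 to 3. All KO libraries were below all WT libraries. This gave a log2 fold change of -0.97 with an adjusted p of 0.205 in edgeR, the smallest of the pathway, and DESeq2 gave an adjusted p of 0.00407. Without KO 1 edgeR's adjusted p was 0.0380. Its relative Rgs4 averaged 6.91 ± 1.48 CPM in KO against 9.37 ± 2.01 CPM in WT, and Gnb1, a beta subunit, 177 ± 0.988 CPM in KO against 192 ± 1.68 CPM in WT.

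In the cyclic AMP branch 12 of 17 genes were above 0, and the median log2 fold change was 0.04. The adenylyl cyclase gene Adcy6 averaged 154 ± 8.38 CPM in KO against 128 ± 9.18 CPM in WT, a log2 fold change of 0.27. Crtc2, a coactivator of the cyclic AMP response, averaged 29.9 ± 4.72 CPM in KO against 24.5 ± 1.116 CPM in WT. Prkaca, the catalytic subunit of protein kinase A, averaged 41.5 ± 3.84 CPM in KO against 45.0 ± 0.310 CPM in WT.

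Other calcium release genes went both ways, 9 of 14 above 0 and 5 below. Lrmp, which encodes an ER membrane protein that binds inositol trisphosphate receptors, averaged 21.4 ± 4.41 CPM in KO against 29.6 ± 4.67 CPM in WT. Ryr3, a ryanodine receptor, averaged 1.42 ± 0.179 CPM in KO against 2.24 ± 0.272 CPM in WT. Itpkc, a kinase that uses up inositol trisphosphate, averaged 9.01 ± 0.203 CPM in KO against 7.14 ± 0.725 CPM in WT. Among 12 other genes of store-operated entry, 7 were above 0. Cracr2b, a calcium-binding regulator of ORAI1, averaged 20.8 ± 0.824 CPM in KO against 16.4 ± 0.990 CPM in WT, and its relative Cracr2a 8.26 ± 0.705 CPM in KO against 6.84 ± 0.527 CPM in WT. Orai2 averaged 15.6 ± 0.636 CPM in KO against 18.6 ± 2.27 CPM in WT.

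Calcium pumps and storage proteins come next. Of 16 pump, exchanger and mitochondrial uptake genes 10 were below 0, and Atp2a3, an ER calcium pump, averaged 64.4 ± 3.48 CPM in KO against 80.5 ± 6.63 CPM in WT. The sodium-calcium exchanger gene Slc8a1 averaged 43.9 ± 6.07 CPM in KO against 51.8 ± 5.27 CPM in WT, and Smdt1, a subunit of the mitochondrial uniporter, 33.9 ± 2.83 CPM in KO against 38.3 ± 1.37 CPM in WT. All 10 ER calcium-binding protein genes had a log2 fold change below 0, with a median of -0.16. A value below 0 was found in 7720 of all 15805 genes tested. Of the 10, 1 passed an unadjusted p of 0.05. In Calr, Canx, Hspa5 and Hsp90b1 KO 2 was the highest of all libraries. Hspa5 had 611, 988 and 660 CPM in KO 1 to 3 and 809, 764 and 906 CPM in WT 1 to 3. In Rcn1, Rcn3 and Calu KO 2 was the lowest. Rcn1 averaged 57.8 ± 15.9 CPM in KO against 77.2 ± 1.74 CPM in WT, and KO 1, at 76.1 CPM, lay with the WT libraries. Rcn1 had an adjusted p of 0.0171 in edgeR without KO 1. Rcn3 averaged 62.3 ± 15.8 CPM in KO against 82.2 ± 8.30 CPM in WT, and Calu 221 ± 26.8 CPM in KO against 254 ± 6.24 CPM in WT.

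In the list of sensors, kinases and calcineurin, 1 of 23 genes was higher and 3 were lower in KO at an unadjusted p under 0.05. The log2 fold change was above 0 in 15 of the 23 and below 0 in 8, with a median of 0.05. Calm2 and Calm3 encode the calcium sensor calmodulin. Calm2 averaged 135 ± 17.5 CPM in KO against 171 ± 12.98 CPM in WT, and Calm3 averaged 147 ± 13.4 CPM in KO against 184 ± 11.4 CPM in WT. Both had all KO libraries below all WT libraries, with a log2 fold change of -0.35 for Calm2 and -0.32 for Calm3. Of 12 acinar ion channel and transporter genes, 10 were above 0. Aqp1, a water channel, had 141, 182 and 164 CPM in KO 1 to 3 and 128, 106 and 108 CPM in WT 1 to 3, with all KO libraries above all WT libraries. Its log2 fold change was 0.51, with an adjusted p of 0.212 in edgeR and 0.0138 in DESeq2. Aqp8 averaged 24.4 ± 9.58 CPM in KO against 18.5 ± 3.53 CPM in WT, and the potassium channel gene Kcnma1 10.1 ± 0.918 CPM in KO against 8.45 ± 1.82 CPM in WT.

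**Figure D4:**
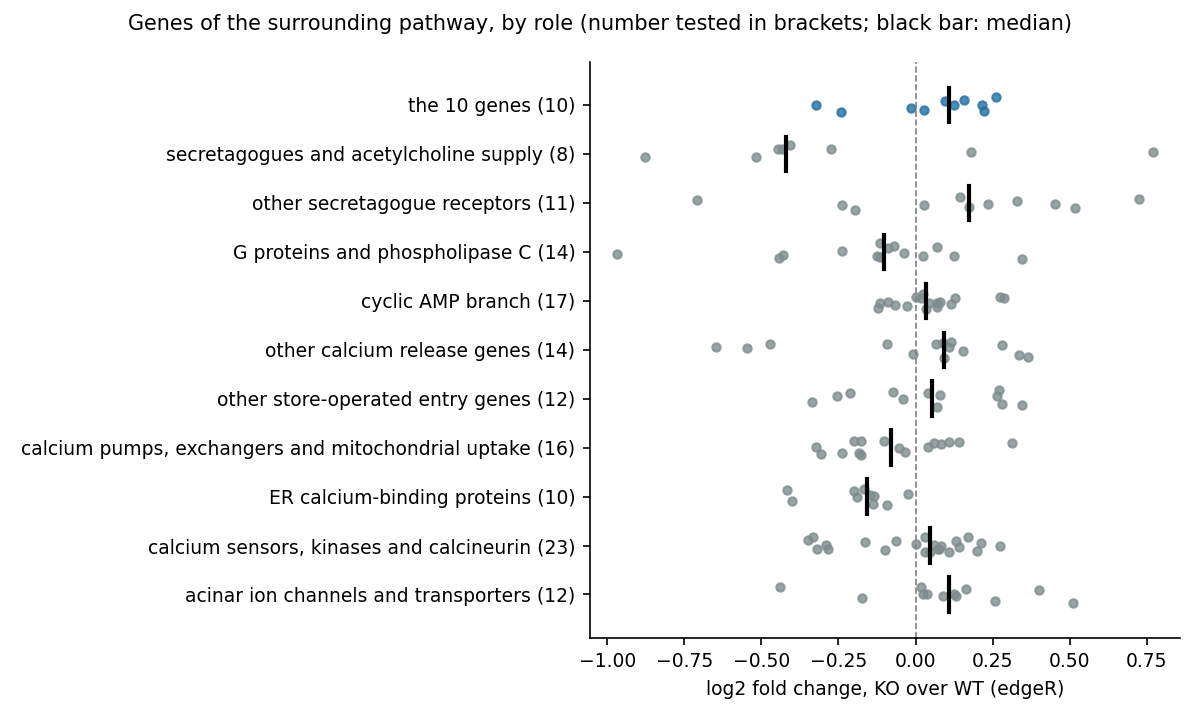
Log2 fold change of KO over WT in edgeR's fit for the 10 genes (top row) and for each tested gene of the 10 pathway lists (rows below), with the number of genes in brackets and the list's median as a black bar. The medians of the lists run from -0.42 for secretagogues and acetylcholine supply to 0.17 for other secretagogue receptors, and the genes of most lists lie on both sides of 0.

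Summed marker levels of other cell types were compared because the organ was sequenced whole. Islet markers summed to 6448 to 7057 CPM in KO against 7286 to 9322 CPM in WT, and the sum is mostly Ins1, Ins2 and Gcg. Of the 9 markers, 5 had a lower and 4 a higher mean in KO, and 4 (Ins1, Ins2, Sst and Chgb) had all KO libraries below all WT libraries, beside 10.3% of all genes tested. Endothelial markers summed to 612 to 629 CPM in KO against 518 to 606 CPM in WT, and 6 of 7 had a higher mean in KO. Adipocyte markers summed to 53.7 to 116 CPM in KO against 36.7 to 48.5 CPM in WT, but nearly all of this was Fabp4, which capillary endothelium also expresses, at 50.1 to 112 CPM in KO against 34.3 to 45.7 CPM in WT. Lep was at 0 in every library, and Adipoq, Cidec and Plin1 were below 1 CPM. Pparg had 3.11, 3.15 and 3.51 CPM in KO 1 to 3 and 2.94, 1.96 and 2.04 CPM in WT 1 to 3. Of the 5 adipocyte markers detected, 3 (Fabp4, Pparg and Cidec) had all KO libraries above all WT libraries, beside 9.07% of all genes tested. The summed levels of the acinar, ductal, mesenchymal, smooth muscle, nerve and glia, macrophage, lymphocyte, erythroid and liver and gut lists overlapped between KO and WT. WT 1 stood apart in the liver gene Alb, at 219 CPM against 6.41 to 15.1 CPM in the other 5 libraries. The part of the islet, endothelial and Fabp4 levels in the values of Rgs16, Aqp1, Agtr1a, Calm2, Calm3 and the 10 genes was not tested.

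Pigf and Slc39a5 were among the 3 genes whose pattern over the 6 libraries lay closest to that of Cckar. Likeness was the root mean square (RMS) difference of centred log2 CPM over the 6 libraries, among 11751 genes with a mean of at least 5 CPM. The difference was 0.109 for Pigf, a gene of anchor synthesis for membrane proteins, and 0.122 for Slc39a5, a zinc transporter, whereas the RMS deviation of Cckar from its own mean was 0.353. Slc39a5 had 35.5, 57.6 and 33.995 CPM in KO 1 to 3 and 31.4, 25.5 and 39.6 CPM in WT 1 to 3, highest in KO 2 and lowest in WT 2 as Cckar was. For Vipr1, whose RMS deviation from its mean was 0.292, the closest were Hkdc1, a hexokinase relative, at 0.0776, Cldn7, a tight junction gene, at 0.104, and Osbpl10, an oxysterol-binding protein relative, at 0.106. Hkdc1 had 11.6, 8.995 and 11.8 CPM in KO 1 to 3 and 12.7, 12.02 and 18.3 CPM in WT 1 to 3, with WT 3 highest and KO 2 lowest as for Vipr1. These are likenesses over 6 libraries that share their depth and composition, given without a test.

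**Figure D5:**
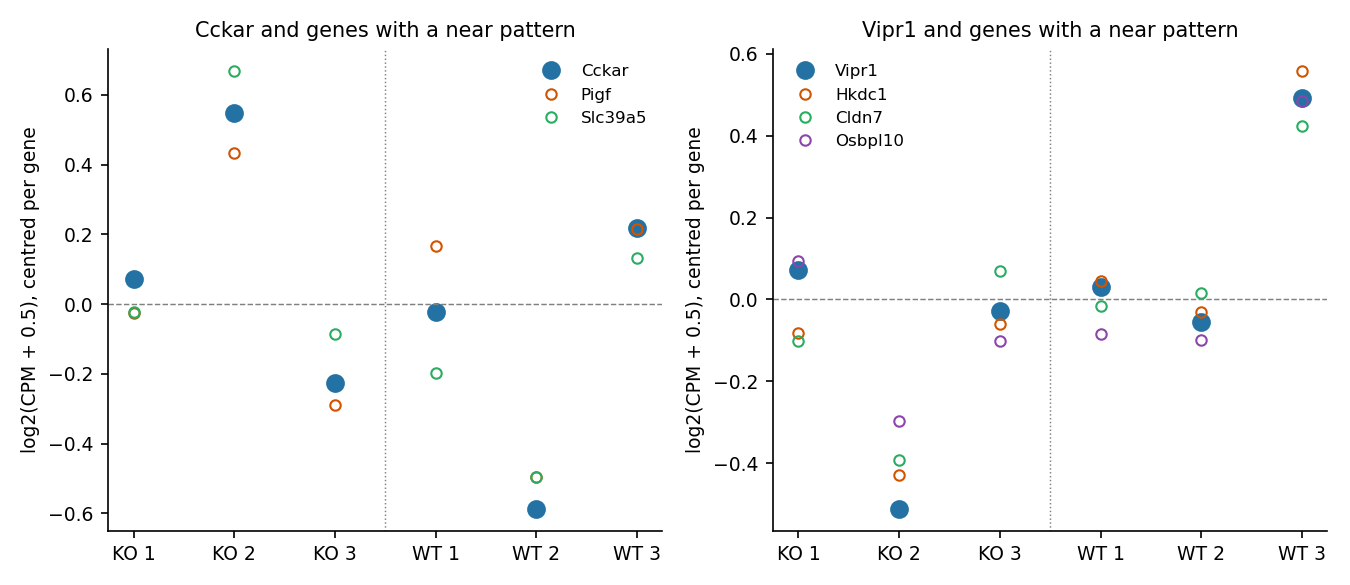
Centred log2 CPM in the 6 libraries, KO 1 to 3 left of WT 1 to 3, for Cckar (left) and Vipr1 (right) with genes of close pattern for each. Filled points are Cckar or Vipr1 and open points the other genes. All are highest in KO 2 and lowest in WT 2 in the Cckar panel, and highest in WT 3 and lowest in KO 2 in the Vipr1 panel.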

How the data were processed

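The tools bcl2fastq, Salmon 0.13.1 and DESeq2 1.24.0 and the genome build mm10 are named in the submitters' processing notes. The authors deposited for each library Salmon's table of 116248 transcripts, holding estimated counts, not normalized, and TPM. Their series-wide table of 17324 genes, also deposited, holds a scaled signal and not counts: 0.566 to 0.791% of its values were whole, and it entered 1 alternative only. Effective lengths, per the file headers, entered another alternative. The 115995 transcripts found in GENCODE M21 were summed per gene and rounded (Python 3.11.15, pandas 2.3.3). Unmatched transcripts held 0.0341 to 0.0458% of reads.

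All 6 libraries were fitted in R 4.3.3 with edgeR 4.0.16 (quasi-likelihood test, TMM factors, default filterByExpr), with no covariate and an adjusted p threshold of 0.05. CPM are TMM-normalized, and gene TPM are sums of the deposited TPM. Library pairs differed beyond sampling noise (chi-square per degree of freedom 22.4 to 86.0). The fits were tested on simulated data. The members and lists were chosen with earlier results of these data known. Named genes were the 10 members, of each list the 3 with the smallest p and a mean of at least 1 CPM, and the 3 nearest patterns to Cckar and to the member with the largest absolute change (log2 of CPM + 0.5). Alternatives were DESeq2 1.42.0, limma-voom (limma 3.58.1), other size factors, other filters, a length offset, the deposited table with limma on log2(value + 1), and leaving out libraries. Irag1, Irag2, Stimate and Septin7 stand in the annotation under older symbols. Ddx3y was named after its values were seen. Vip, Calr, Canx, Hspa5, Hsp90b1 and pathway genes below the filter were named outside the rule. Some genes the rule takes are not reported here.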

Additional observations from a re-analysis of the deposited data

How the results depend on the processing

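For the 10 genes, 0 were called under each of 16 alternatives, and 150 of 160 log2 fold changes kept their sign. The sign turned in 3 genes near 0. Chrm1 had -0.030 without KO 1, -0.015 without WT 1 and -0.016 without KO 2 and WT 1 together. Gnaq had -0.0038 without KO 3, -0.0084 without WT 1 and -0.0094 without KO 2 and WT 1 together. Orai1 had 0.044 with the length offset, 0.052 in the authors' deposited table with limma, 0.0085 without KO 1 and 0.076 without WT 2. With 1 library left out the log2 fold changes ran from -0.030 to 0.21 for Chrm1, -0.0084 to 0.10 for Gnaq and -0.083 to 0.076 for Orai1.

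Over all genes, 0 were called in the edgeR fit, 1 with no filter, 436 with DESeq2 (132 higher and 304 lower in KO), 2 with limma-voom, 3 in the authors' deposited table and 2 without KO 2 and WT 1 together. Leaving out 1 library gave 0 to 362 calls, the most without KO 1 (87 higher, 275 lower). Of the pathway genes, 2 were called with DESeq2 and 0 to 2 with 1 library left out, the 2 again without KO 1 (Rcn1 and Rgs16). The cause was not tested. No pathway gene that the rule takes changed sign in 480 values. The number of genes with a seed match was 1 with the 8mer and 7mer-m8 alone. No paired analysis was possible because each donor number occurs once and replicate numbers follow sample order.

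Depth limits Chrm1 (32 to 48 reads) and Sctr (52 to 98 reads) most. The p-values of edgeR set the difference between KO and WT against the spread between mice, with 3 mice per group. The fit moderates that spread with information from all genes tested.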
